A study of Homo sapiens with 32 samples.

Results

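The 8 genes FOS, FOSB, FOSL1, FOSL2, JUN, JUNB, JUND and ATF3 encode subunits of the transcription factor AP-1. They were taken by gene name from the count tables of both time points, where each name has 1 row among 57773 annotated genes. All 8 were measured and all 8 passed the filter on low counts after 6 h and after 24 h, so that no member was left without a test. RNA came from HEK293 cells, an established human embryonic kidney line, after transient transfection with the angiotensin II receptor AT1R, which the unstimulated control cells carried too. In serum-free medium the cells received no stimulus (control), 1 nmol/l angiotensin II (AII), 10 µg/l epidermal growth factor (EGF) or both at these concentrations (AII+EGF), for 6 h or for 24 h. The 6 h table held 16 libraries, 4 per condition. After 24 h control, AII and EGF had 4 libraries each and AII+EGF had 3 (15 libraries). Transient transfection reaches only some of the cells, so that in these bulk samples a larger share of responding cells and more RNA per cell cannot be told apart. The labels do not say whether the libraries of a condition came from separate cultures, so that p-values measure the spread between these libraries, which may be technical.

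AP-1 is a pair of proteins joined through leucine zippers. JUN, JUNB and JUND can pair with one another or with a protein of the FOS family (FOS, FOSB, FOSL1, FOSL2), whereas FOS proteins need a partner such as JUN to bind DNA. ATF3 belongs to the neighbouring ATF group, pairs with JUN proteins and is known as a stress-induced gene. FOS is the textbook immediate early gene: growth factors switch on its transcription within minutes through serum response factor (SRF) and its ELK partners on a CArG box, and its mRNA is short-lived. JUND, in contrast, is known for a steady level in resting cells. EGF acts on the receptor tyrosine kinase EGFR and through it on the ERK kinases, and AII acts on the G protein-coupled receptor AT1R.

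The stretches upstream of the start sites were searched for elements known from this pathway, by match to a fixed pattern only. Variants of an element and copies beyond the searched stretch are missed, so that a member without a match may still hold it. In the 500 bases before the start site, taken from the genome build GRCh37 and searched on both strands, FOS and FOSB held a CArG box, found in 2.40% of 19894 protein-coding genes. FOSB and JUND held the cyclic AMP response element TGACGTCA (2.885% of genes), and JUN held TGACATCA (2.69% of genes), the variant at which JUN and ATF proteins are known to bind. The AP-1 site TGANTCA was present in none of these windows (0 of 8 members, 9.68% of genes). The sequences are given on the strand of the gene with the element in capitals and 10 bases on either side.
FOS CArG box, chr14:75745207-75745236, plus strand: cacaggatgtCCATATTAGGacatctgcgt
FOSB CArG box, chr19:45970970-45970999, plus strand: cggccgagctCCTTATATGGctaattgcgt
FOSB response element, chr19:45970919-45970946, plus strand: ggattccctcTGACGTCAttgctaggat
JUND response element, chr19:18392615-18392642, minus strand: gccgcccccaTGACGTCAacccacaagg
JUN variant element, chr1:59249769-59249796, minus strand: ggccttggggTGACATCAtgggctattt
The CArG boxes began 314 bases before the start site of FOS and 274 bases before that of FOSB, and the JUN variant lay 67 to 60 bases upstream. All of these stretches lie outside the annotated genes, before their first base. Presence or absence of the letters is a description and says nothing of what binds there. FOS (ENSG00000170345) lies on chr14:75745529-75748933 with 4 exons in its main transcript, JUN (ENSG00000177606) on chr1:59242517-59249720 with 1 exon, and JUNB and JUND are also genes of 1 exon. FOSL2 (ENSG00000075426) lies on chr2:28615315-28640184 and ATF3 (ENSG00000162772) on chr1:212738676-212794119, each with 4 exons in the main transcript.

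The libraries held 3881841 to 8540815 counts after 6 h and 6646227 to 33070903 after 24 h, of which the 8 members took 1571 to 4052 and 2909 to 7103 counts. After 24 h only 20.8% to 63.4% of the counts were on protein-coding genes, against 81.4% to 84.7% after 6 h. Genes of U1 small nuclear RNA took 8.90% to 57.2% after 24 h, with AII library 3 and AII+EGF library 4 above 50%. The number of members called was 0 in each comparison after 24 h and stayed 0 when both libraries were left out together. A count of 0 cannot fall, so that it does not show how far the values depend on them. For ATF3 in AII+EGF against AII, the edgeR adjusted p was 0.0592 with both libraries and 0.338 without them (log2 0.84 and 0.89). Values are given as FPM, counts scaled to library size with TMM factors, given per 1000000 counts. The time points were scaled separately and differ in their share of protein-coding counts. A difference in FPM between them, as for AGTR1 below, can therefore not be read as a change in level. Of the markers of HEK293 cells, VIM, NEFL, NEFM and LIN28B were abundant in every library (LIN28B at 53.2 to 195 FPM), KRT8 and KRT18 were low, and PAX2 had at most 10 counts. Of 8 markers of other cell types, 7 were matched and 6 of them had at most 7 counts in any library, whereas MYH11, a smooth muscle myosin, had 3.12 to 21.3 FPM. NEFM and LIN28B were themselves higher with EGF after 6 h (log2 fold change 0.60 and 0.55, edgeR adjusted p of 4.0e-04 and 2.6e-04), and VIM and NEFL were not (log2 -0.21 and -0.11). AGTR1, the transfected receptor, was at 950 to 1568 FPM after 6 h and 369 to 685 FPM after 24 h. It was higher with AII+EGF than in control after 6 h (log2 fold change 0.45 ± 0.08 SE, edgeR adjusted p = 4.98e-04). With AII alone AGTR1 was 0.34 ± 0.08 higher (edgeR unadjusted p = 1.7e-04, adjusted p = 0.987), and with EGF its log2 fold change was 0.002 ± 0.08. AII libraries were at 1318 to 1515 FPM and control libraries at 950 to 1191 FPM after 6 h. The part of AGTR1 in the results was not tested. EGFR, at 39.0 to 67.7 FPM after 6 h, was 0.35 ± 0.10 higher with EGF on the log2 scale (edgeR adjusted p = 0.0319).

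JUN dominated the AP-1 transcripts. Divided by exon length, the level of JUN in control cells after 6 h was 81.6 ± 15.5 FPM per kilobase (SD, n = 4), followed by JUND at 35.9 ± 6.67, ATF3 at 12.3 ± 1.42, JUNB at 3.58 ± 0.622, FOSL2 at 2.97 ± 0.194, FOSL1 at 2.68 ± 1.24, FOS at 0.309 ± 0.111 and FOSB at 0.273 ± 0.045 FPM per kilobase. JUNB, FOSL2 and FOSL1 were not separated from one another beyond their spread, nor were FOS and FOSB. As a share of the summed level per kilobase, JUN made up 58.3% ± 2.09, JUND 25.7% ± 1.45 and the 4 FOS family genes together 4.44% ± 0.504 in control (n = 4). EGF libraries had a FOS family share of 7.21% ± 0.797, AII+EGF libraries 6.90% ± 1.38 and AII libraries 4.49% ± 0.913. Every library with EGF or AII+EGF, from 5.39% upwards, lay above every control library, at most 5.08%. After 24 h the FOS family share was 4.89% ± 1.61 for control and 4.65% ± 0.959 for EGF (n = 4 each). It was 6.50% ± 1.48 for AII (n = 4) and 6.16% ± 0.839 for AII+EGF (n = 3), and the libraries of both overlapped with those of control, which reached 7.16%. The share counts transcripts only and says nothing of protein.

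**Figure D1:**
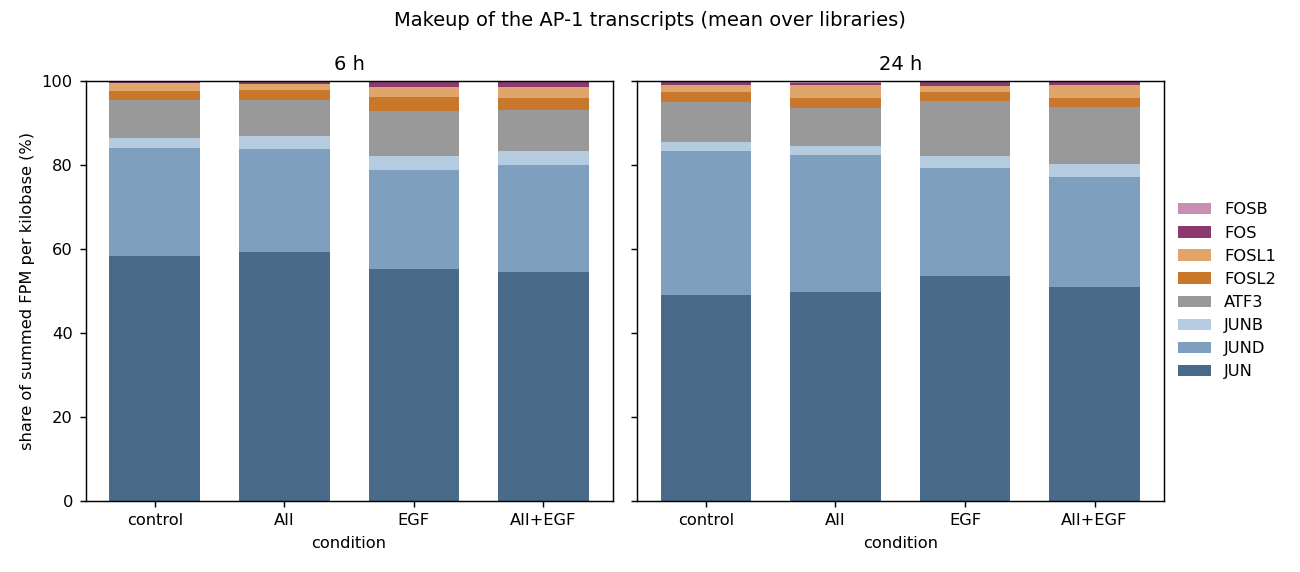
Stacked bars give the share (%) of each of the 8 genes in their summed FPM per kilobase of exon, as the mean over the libraries of each condition after 6 h (left) and 24 h (right). JUN and JUND fill most of every bar, and the 4 FOS family genes at the top widen from 4.44% for control to 7.21% for EGF after 6 h.

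A gene was called regulated when edgeR's quasi-likelihood test, adjusted over all genes tested, gave an FDR below 0.05, the fold change was above 1.5 and the mean of the higher group was above 5 FPM. After 6 h EGF called 2 of 8 members against 1.73% of the 18618 genes tested, both higher than in control (FOS and FOSL2). AII+EGF called 3 of 8 against 1.95% of genes (FOS, FOSL2 and JUNB), and AII called 0 of 8, as for all genes (0%). Without the filters on fold change and FPM, EGF still called 2 of 8 (5.97% of genes) and AII+EGF called 4 of 8 (6.1% of genes), with ATF3 in addition. For AII, 0 members reached an unadjusted p under 0.05 (4.54% of genes) and DESeq2 also called 0. The median log2 fold change of the 8 members was 0.37 for EGF, 0.02 for AII and 0.57 for AII+EGF, against -0.01, 0.00 and -0.01 over all genes tested. Groups that did not overlap were more frequent than these calls: every EGF library lay above every control library for 3 members (6.61% of genes), every AII+EGF library for 4 members (6.77% of genes) and every AII library for 1 member (0.978% of genes).

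**Figure D2:**
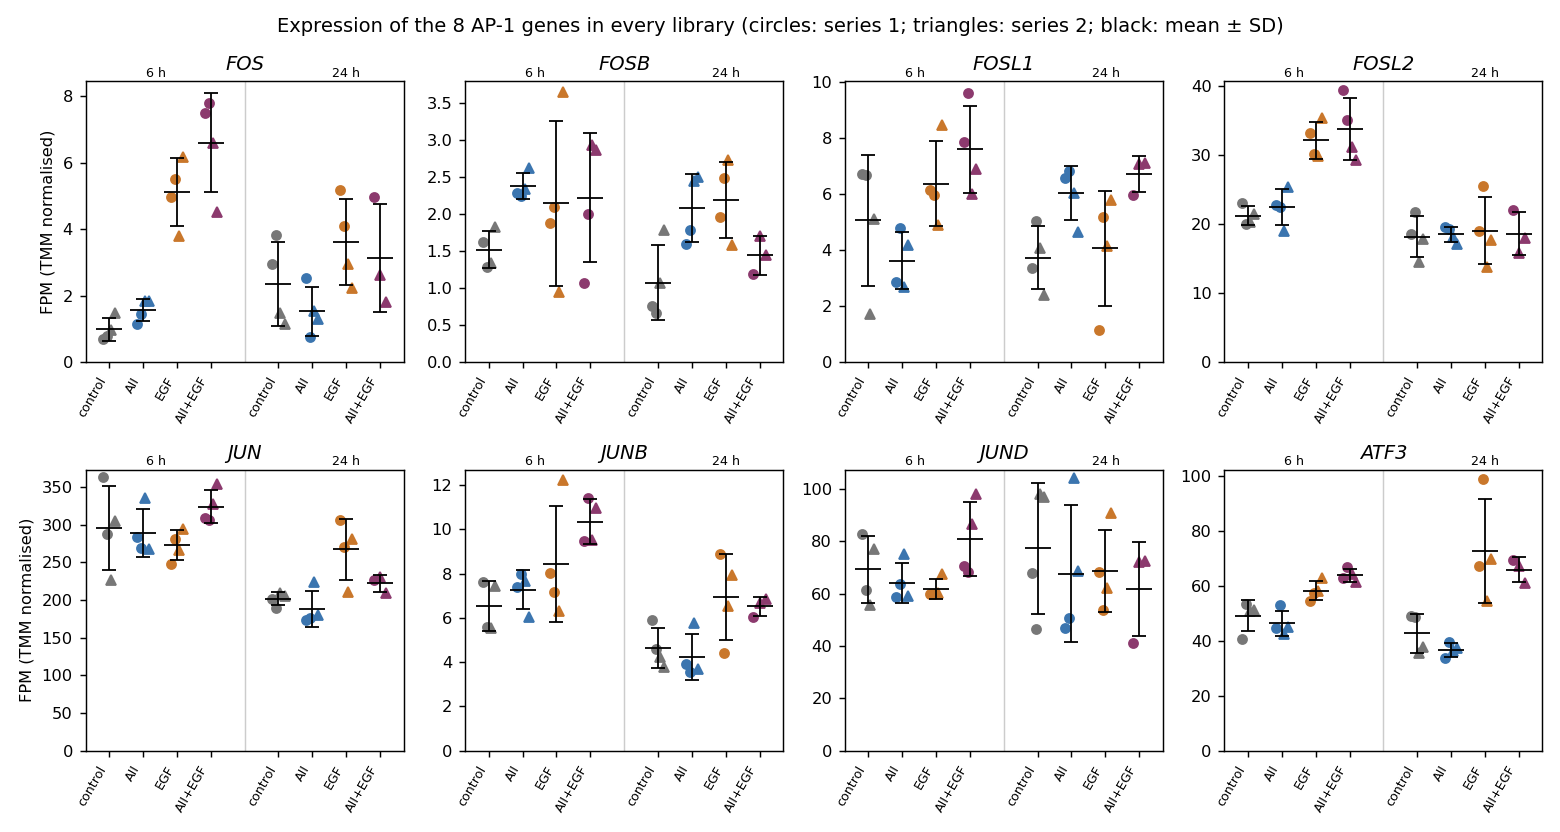
Each panel shows 1 gene, with TMM-normalised FPM on a linear axis from 0 and the conditions after 6 h and 24 h along the horizontal axis; points are libraries (circles for the first, triangles for the second library series), and black bars the mean ± SD. After 6 h the FOS and FOSL2 libraries with EGF or AII+EGF stand above all control libraries, whereas JUN and JUND overlap with control.

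FOS, the short-lived partner of JUN, changed most. The 4 control libraries after 6 h held only 3, 5, 5 and 9 FOS counts, or 0.694, 0.797, 0.958 and 1.49 FPM. With EGF the libraries were at 4.96, 5.53, 3.79 and 6.18 FPM (24 to 51 counts). With AII+EGF they were at 7.51, 7.81, 6.59 and 4.51 FPM. The 8 libraries that received EGF did not overlap with the control libraries in either condition. FOS rose 5.05-fold with EGF (log2 2.34 ± 0.31, edgeR adjusted p = 3.2e-05) and 6.43-fold with AII+EGF (log2 2.68 ± 0.30). With AII alone FOS was at 1.14 to 1.84 FPM (6 to 11 counts), a log2 fold change of 0.62 ± 0.38 (edgeR adjusted p = 0.987), and 2 AII libraries lay within the range of control. Within each library series, with 2 libraries per condition, both AII libraries lay above both control libraries. The log2 ratios of the means were 0.79 and 0.59. How many of all genes had this order was not counted, so that it is a description only. With EGF the log2 ratios of the means were 2.81 in the first library series and 2.03 in the second. Their shared sign follows from the groups not overlapping. The FOS mean with EGF lay close to the 5 FPM limit. Without EGF library 2 or 4, or in DESeq2 (adjusted p = 2.98e-07, mean of 4.99956 FPM), FOS was no longer called with EGF. Its log2 fold change was 2.30 and 2.23 without these libraries and 2.36 in DESeq2.

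FOSL2, which encodes FRA-2, had a higher and less variable level. Control libraries after 6 h were at 23.1, 20.1, 20.3 and 21.5 FPM, EGF libraries at 33.2, 30.2, 29.8 and 35.4 FPM and AII+EGF libraries at 39.5, 35.1, 31.2 and 29.3 FPM. All libraries with EGF or AII+EGF exceeded those of control and of AII (19.0 to 25.5 FPM). FOSL2 rose 1.52-fold with EGF (log2 0.60 ± 0.11, edgeR adjusted p = 0.0017) and 1.59-fold with AII+EGF (adjusted p = 5.1e-04). The fold change with EGF lay at the limit of 1.5 and fell below it without control library 2 or EGF library 4, to log2 values of 0.58 and 0.56.

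FOSB and FOSL1, the remaining FOS family genes, were not called against control. FOSB, with means of at most 2.37 FPM, lay below the limit of 5 FPM in every condition and could not be called. FOSB stood at 1.28 to 1.82 FPM in control and 2.24 to 2.62 FPM with AII. EGF libraries covered 0.947 to 3.64 FPM and AII+EGF libraries 1.07 to 2.93 FPM. It was the member for which every AII library lay above every control library, with log2 0.63 ± 0.39 (edgeR adjusted p = 0.987) and 7 to 14 counts per library in these 2 conditions. FOSL1, which encodes FRA-1, ranged from 1.72 to 6.71 FPM in control and from 6.00 to 9.63 FPM with AII+EGF. Its log2 fold change with AII+EGF was 0.57 ± 0.28 against control (edgeR adjusted p = 0.278). Against AII, where FOSL1 was at 2.67 to 4.80 FPM, AII+EGF raised it 2.08-fold (log2 1.06 ± 0.30, adjusted p = 0.0369). That call was lost when AII library 1 or 3, or AII+EGF library 1, 2 or 4, was left out, with edgeR adjusted p-values from 0.0615 to 0.121.

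JUN and JUND, the abundant partners, were not called after 6 h in any comparison. JUN libraries were at 363, 288, 227 and 305 FPM in control and 284, 269, 336 and 268 FPM with AII. EGF libraries were at 248, 281, 267 and 295 FPM, those with AII+EGF at 309, 306, 327 and 354 FPM. Control covered the whole range of the stimulated libraries. The log2 fold changes of JUN were -0.12 with EGF (95% confidence interval -0.33 to 0.10), -0.03 with AII (-0.25 to 0.18) and 0.13 with AII+EGF (-0.08 to 0.35), intervals that exclude a 1.5-fold change in these libraries. JUND ranged from 55.6 to 82.8 FPM in control and from 58.8 to 75.2 FPM with AII. EGF libraries held 59.7 to 67.7 FPM of JUND, AII+EGF libraries 68.1 to 98.2 FPM. Its log2 fold change with AII+EGF was 0.23 ± 0.12 (edgeR adjusted p = 0.316), with a log2 ratio of the means of -0.06 in the first library series and 0.48 in the second.

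JUNB, the third JUN gene, was low, at 7.63, 5.58, 5.56 and 7.44 FPM in control and 9.47, 11.4, 9.52 and 10.98 FPM with AII+EGF. These groups did not overlap. The rise of 1.59-fold (log2 0.66 ± 0.20, edgeR adjusted p = 0.0485) was at the limit of the FDR and was called in 1 of 8 fits that left out a library, the one without control library 1. Over these 8 fits the edgeR adjusted p ranged from 0.0361 to 0.144. With EGF alone JUNB was at 6.31 to 12.2 FPM, overlapping with control (log2 0.39 ± 0.20, adjusted p = 0.283).

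ATF3, the stress-induced member, moved less after 6 h. Control libraries were at 40.7, 53.4, 51.0 and 51.1 FPM, EGF libraries at 54.4, 57.5, 57.9 and 62.9 FPM and AII+EGF libraries at 62.7, 66.8, 64.4 and 61.4 FPM. Neither stimulated group overlapped with control. With AII+EGF the FDR was below the limit (adjusted p = 0.0128, edgeR) but the fold change was 1.30, so that ATF3 was not called. With EGF the log2 fold change was 0.24 ± 0.09 (adjusted p = 0.118). AII libraries were at 42.5 to 53.0 FPM.

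**Figure D3:**
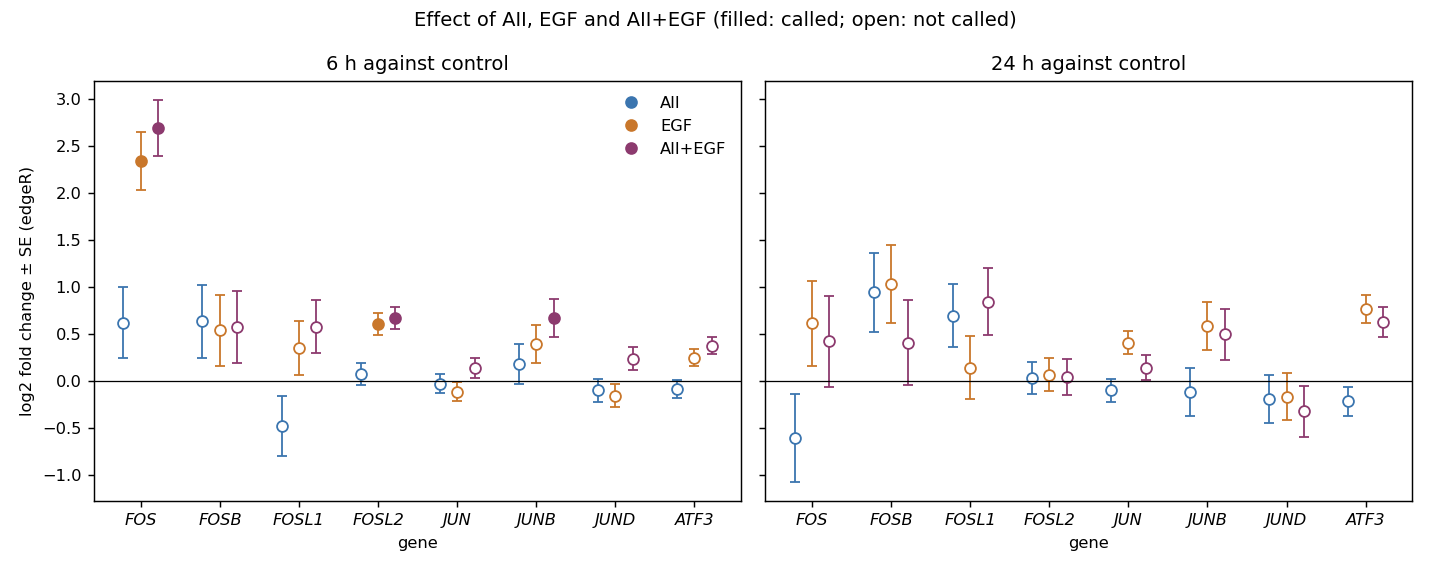
Points give the edgeR log2 fold change of each gene against control, with its SE as bars, for AII, EGF and AII+EGF after 6 h (left) and 24 h (right); filled points were called regulated. After 6 h FOS stands at 2.34 for EGF and 2.68 for AII+EGF, and after 24 h no point is filled.

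The question of synergy, whether AII added to EGF, was put by comparing AII+EGF with EGF and by the interaction, the difference between the joint effect and the sum of both single effects on the log2 scale. A sum on this scale is a product of fold changes. The interaction therefore does not answer whether the joint rise in FPM exceeded the sum of both single rises, which was not tested. After 6 h 0 of 8 members were called in the direct comparison (0% of genes in edgeR, and 0 members in DESeq2), with 2 of 8 at an unadjusted p under 0.05 (7.26% of genes). FOS was 1.27-fold higher with AII+EGF than with EGF, with a 95% confidence interval of the log2 fold change from -0.11 to 0.81, and the libraries overlapped. FOSL2 differed by 0.06 (-0.16 to 0.28). The 2 members at an unadjusted p under 0.05 were JUN (log2 0.25) and JUND (log2 0.39), both with an edgeR adjusted p of 0.677. In both genes every AII+EGF library lay above every EGF library, as in 2.85% of all genes. The log2 ratios in the 2 library series were 0.22 and 0.28 for JUN and 0.21 and 0.53 for JUND. Their shared sign follows from the separation and adds nothing to it. The separation of JUND was narrow, with 67.7 FPM in the highest EGF library and 68.1 FPM in the lowest AII+EGF library. Over the 7 alternatives that kept all libraries, the adjusted p of JUND in edgeR or DESeq2 ranged from 0.0379 to 0.767. Its log2 fold change there was 0.38 to 0.39, below the limit on fold change, so that 0 of these called it. The interaction called 0 of 8 members (0% of genes in edgeR, and 0 members in DESeq2). JUND had the only unadjusted p under 0.05 among them, as 8.01% of genes had (log2 0.49 ± 0.17, edgeR adjusted p = 0.592). For FOS the interaction was -0.27 with a 95% confidence interval from -1.17 to 0.63. The mean FOS levels were 0.98 FPM in control, 1.56 FPM with AII, 5.12 FPM with EGF and 6.60 FPM with AII+EGF.

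Read from the other side, AII+EGF against AII called 3 of 8 members (1.87% of genes), namely FOS (4.19-fold), FOSL1 (2.08-fold) and FOSL2 (1.51-fold), and 4 of 8 without the filters on fold change and FPM (5.93% of genes). All were higher with AII+EGF. The call for FOSL2 was lost with protein-coding genes only and without AII library 3 or AII+EGF library 1 or 2, since its fold change then fell below 1.5. The same AII+EGF libraries serve in this comparison and in that with control.

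After 24 h 0 of 8 members were called with EGF (0.0316% of 22174 genes), AII (0% of genes) or AII+EGF (0.0271% of genes). The same held for AII+EGF against EGF (0% of genes), for AII+EGF against AII (0.0406% of genes) and for the interaction (0% of genes). Means of FOS (1.53 to 3.62 FPM) and FOSB (1.07 to 2.18 FPM) lay below the limit of 5 FPM in every condition. Neither gene could therefore be called after 24 h at this scaling, whatever its FDR. What lies below the limit depends on the scaling to all counts. With protein-coding genes only, the ATF3 mean with AII+EGF was 153 FPM, against 65.8 FPM here. With the FDR alone, 0 of 8 members were called in these comparisons too. An unadjusted p under 0.05 in edgeR was reached by 4 members with EGF (8.48% of genes), 1 with AII (2.49% of genes) and 2 with AII+EGF (5.4% of genes), all higher than in control. It was reached by 0 members for AII+EGF against EGF (3.37% of genes), by 3 for AII+EGF against AII (4.28% of genes) and by 1 for the interaction (2.37% of genes). DESeq2 called ATF3 with EGF and with AII+EGF against AII, and 0 members in the other comparisons after 24 h. For AII+EGF against control and against AII it gave an adjusted p for 6 of 8 members only, without FOS and FOSB. Every EGF library lay above every control library for 2 members (2.35% of genes), every AII library for 0 (1% of genes) and every AII+EGF library for 4 (3.99% of genes, with 3 libraries). The median log2 fold change of the members was 0.49 with EGF, -0.11 with AII and 0.41 with AII+EGF, against 0.00, 0.00 and -0.01 over all genes tested.

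ATF3 was the member nearest to a call after 24 h. Control libraries were at 49.1, 48.7, 35.5 and 37.8 FPM, EGF libraries at 67.2, 98.9, 54.4 and 69.8 FPM, and the 3 AII+EGF libraries at 69.5, 67.2 and 60.9 FPM. AII libraries, at 33.6, 39.7, 36.4 and 37.3 FPM, remained in or below the range of control. The libraries with EGF or AII+EGF did not overlap with those of control or AII. The log2 fold changes were 0.76 ± 0.15 with EGF (edgeR adjusted p = 0.0796) and 0.62 ± 0.16 with AII+EGF (adjusted p = 0.365), and 0.84 ± 0.16 for AII+EGF against AII (adjusted p = 0.0592). The difference with EGF was present in both library series, with log2 ratios of 0.77 and 0.76. When the fit held the library series as a term, ATF3 was called with EGF (adjusted p = 0.0103), with AII+EGF (adjusted p = 0.0488) and for AII+EGF against AII (adjusted p = 0.00568), and it was called with EGF also without EGF library 3 (adjusted p = 0.0357).

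FOS was not called after 24 h. The EGF libraries were at 5.20, 4.10, 2.94 and 2.24 FPM and the control libraries at 2.96, 3.83, 1.49 and 1.15 FPM, so that the groups overlapped over all libraries (log2 0.61 ± 0.45, edgeR adjusted p = 0.779). The first library series was higher than the second in both conditions. Within each series, with 2 libraries per condition, both EGF libraries lay above both control libraries. The log2 ratios of the means were 0.45 and 0.97. The share of all genes with this order was not counted. AII+EGF libraries were at 4.96, 2.62 and 1.81 FPM. FOSL2 was at 13.8 to 25.5 FPM over all libraries, with log2 fold changes of 0.06 with EGF and 0.04 with AII+EGF. FOSB (log2 1.03 ± 0.42 with EGF, edgeR adjusted p = 0.4997) was at 0.667 to 1.78 FPM in control and 1.58 to 2.72 FPM with EGF. It had an interaction of -1.56 ± 0.62 at an unadjusted p of 0.0195 (edgeR adjusted p = 1.00), since AII and EGF each stood near 2 FPM and AII+EGF at 1.44 ± 0.261 FPM (n = 3). FOSL1 was at 5.97 to 7.14 FPM with AII+EGF and 2.41 to 5.05 FPM in control, groups that did not overlap (log2 0.84 ± 0.36, edgeR adjusted p = 0.906). With AII alone FOSL1 was at 4.67 to 6.84 FPM (log2 0.69 ± 0.33, edgeR unadjusted p = 0.0501, adjusted p = 0.9999), and with EGF at 1.15 to 5.80 FPM (log2 0.14 ± 0.34). Both groups overlapped with control. Within each library series, both AII libraries lay above both control libraries for FOSL1, and also for FOSB. For FOSL1 the log2 fold change between AII+EGF and AII was 0.15 ± 0.35.

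JUN after 24 h was at 202, 190.1, 209.6 and 206 FPM in control and at 307, 270.4, 211 and 281 FPM with EGF. All EGF libraries were higher, library 3 by a small margin (log2 0.40 ± 0.12, edgeR adjusted p = 0.338). With AII+EGF JUN was at 227, 230.3 and 209.8 FPM, above every control library by a margin that came down to 209.8 against 209.6 FPM (log2 0.14, edgeR adjusted p = 0.998). JUNB stood at 3.79 to 5.91 FPM in control and 4.41 to 8.89 FPM with EGF (log2 0.58 ± 0.25, adjusted p = 0.534). JUND differed between the library series. Its level was 41.2 to 68.1 FPM in the first series (7 libraries) and 62.1 to 104 FPM in the second (8 libraries), whose share of U1 counts was 8.90% to 26.0% and 18.1% to 57.2%. All columns of the first series and 1 of the second are among the 8 named as filtered. The parts of the U1 share and of this filtering in the level of JUND were not tested.

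The effects of EGF and of AII+EGF at both time points were compared in a joint fit, in which the FDR alone made a call. For EGF 0 of 8 members were called (0.173% of 21932 genes), with 4 at an unadjusted p under 0.05 (10.1% of genes). For AII+EGF 0 of 8 were called (0.123% of genes), with 2 at an unadjusted p under 0.05 (7.49% of genes). DESeq2 called 0 of the 7 members with an adjusted p for EGF, where FOSB had none, and 0 of 6 for AII+EGF, where FOS and FOSB had none. The effect on FOS was smaller after 24 h by log2 -1.73 ± 0.58 for EGF (edgeR adjusted p = 0.259) and by -2.29 ± 0.60 for AII+EGF (edgeR adjusted p = 0.165). FOSL2 had differences of the same sign, -0.54 ± 0.21 and -0.64 ± 0.22. JUN and ATF3 had the opposite sign for EGF, 0.52 ± 0.17 and 0.52 ± 0.18 (edgeR adjusted p of 0.236 and 0.281). The difference in FOS between the time points did not pass the correction over all genes, and time point and table cannot be told apart in it.

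Genes around AP-1 were described by lists that were written with results of these data known. Of 26 other bZIP proteins, which can pair with AP-1 subunits or bind related sites, 22 were tested after 6 h. EGF raised 3 of them and lowered 0 (1.73% of all genes tested were called), and AII+EGF raised 5 and lowered 0 (1.95% of genes). BATF3, which pairs with JUN proteins, had a mean of 2.30 FPM in control and rose to 5.34 FPM under EGF and 6.60 FPM under AII+EGF (log2 1.14 ± 0.29 and 1.46 ± 0.29, edgeR adjusted p of 0.0176 and 0.0021). MAFF and CEBPB rose with AII+EGF (log2 1.25 ± 0.29 and 0.90 ± 0.18), and the repressor BACH2 with EGF and with AII+EGF (log2 0.66 ± 0.09 and 0.68 ± 0.09). The median over the list was 0.13 with EGF and 0.07 with AII+EGF.

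The 24 genes upstream of AP-1, among them SRF, the ELK factors, the MAP kinases and the receptors, were all tested after 6 h, and edgeR called 0 with EGF or AII+EGF (6 each at an unadjusted p under 0.05, against 20.2% of genes for EGF and 18.9% for AII+EGF). Without the filters on fold change and FPM, 4 were higher with EGF (5.97% of genes passed in either direction) and 5 with AII+EGF (6.1% of genes), and 0 were lower. Of 28 textbook AP-1 target genes 27 were found by name and 10 passed the filter on low counts after 6 h. TGFB1, a growth factor of matrix formation, was the only one called, with means of 20.4 FPM for EGF and 23.1 FPM for AII+EGF against 4.88 FPM for control (log2 2.03 ± 0.20 and 2.21 ± 0.20). Over all genes 1.73% were called with EGF and 1.95% with AII+EGF. The median over the 10 tested was 0.28 with EGF and 0.32 with AII+EGF. Of 6 factors that bind AU-rich elements and so govern the decay of short-lived mRNAs, edgeR called 0 with either. An unadjusted p under 0.05 was reached by 1 with EGF (20.2% of genes) and by 3 with AII+EGF (18.9% of genes). AII called 0 genes of any list after 6 h (0% of genes), with at most 1 gene per list at an unadjusted p under 0.05 (4.54% of genes).

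Of 14 further immediate early genes 11 were tested after 6 h, and 5 rose with EGF (1.73% of genes called) and 5 with AII+EGF (1.95% of genes), while 0 fell. EGR1, a zinc finger factor with SRF sites in its promoter, rose by log2 4.48 ± 0.17 with EGF. NAB2, a corepressor of EGR proteins, had means of 29.5 FPM for EGF and 34.3 FPM for AII+EGF against 5.94 FPM for control (log2 2.32 ± 0.18 and 2.54 ± 0.18). After 24 h EGR1 was the only one of 13 tested that was still called (0.0316% of genes with EGF and 0.0271% with AII+EGF). Its log2 fold changes were 2.53 ± 0.19 with EGF and 2.95 ± 0.19 with AII+EGF. FOS was not called at that time, and its means lay below the limit of 5 FPM.

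ATF3 is a known target of the amino acid stress factor ATF4, so 12 genes of that response were followed with it. After 6 h 11 were tested, of which EGF called 0 in edgeR (1.73% of genes). At an unadjusted p under 0.05 (20.2% of genes), 3 were higher and 3 lower with EGF. AII+EGF called 2 (1.95% of genes), CEBPB (log2 0.90 ± 0.18) and TRIB3 (log2 0.66 ± 0.20), both higher. After 24 h all 12 were tested. EGF called 1 of them (0.0316% of genes) and AII+EGF called 3 (0.0271% of genes), ATF4 itself among these 3. ATF4 had means of 122 FPM in control and 194 with AII+EGF (log2 0.67 ± 0.11, edgeR adjusted p = 0.0206). The median over the list after 24 h was 0.49 with EGF and 0.58 with AII+EGF, against 0.00 and -0.01 over all genes, and ATF3 itself stood at 0.76 and 0.62. AII gave a median of -0.11 and called 0.

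The genes whose level followed a member most closely were sought among 12995 non-members with a mean of at least 5 FPM, by Pearson's r of log2(FPM + 1) over the 16 libraries after 6 h. These libraries share 4 conditions, so that r is high for any gene that moved with EGF, and it is given as a description only. The 5 nearest to FOS were TGFB1 (r = 0.973), STC2, NDRG1, SLC2A1 and EGR1 (r = 0.963), with r of 0.298 to 0.754 over the 15 libraries after 24 h. Nearest to FOSL2 were EGLN1 (r = 0.955), KIF5C, BACH2, ARRDC4 and RRM2. ATF3 was followed by DFFA (r = 0.935), TPM4, NCR3LG1, TUBA1A and TUBA1C. The genes closest to JUN were RABL6 (r = 0.954), THOP1, PPP1R12C, SBF1 and ZNF598, and those closest to JUND were CENPB (r = 0.919), NEURL4, FKBP8, MIR3687 and HIC2. JUNB (SDC1, HSPB1, KCTD15, RIMS4 and WNT11) and FOSL1 (PAPSS1, UBALD2, DSP, SPRY1 and ATF5) had lower values of at most 0.879 and 0.861. Those of FOSL1 were -0.325 to -0.0226 after 24 h.

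Among the members themselves r over the 16 libraries after 6 h was 0.923 between FOS and FOSL2, 0.828 between FOS and ATF3, 0.706 between FOS and JUNB and 0.880 between JUN and JUND. Between FOS and JUN r was 0.128, and between FOSL2 and JUND it was 0.110. After 24 h r between FOS and FOSL2 was 0.433 and between JUN and JUND 0.262, whereas JUN and ATF3 had 0.746. These values too are over libraries that share conditions and library series, and are a description.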

How the data were processed

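The authors removed adaptors, mapped paired reads to hg19 and counted them per gene. Per the labels, cutadapt 1.8.1, TopHat2 2.0.14 and featureCounts 1.4.6 were used, whereas the series text names HISAT2 as mapper; the strand setting is not given in the sources used here. The deposited values are raw counts, without normalization. Of 32 libraries in the labels 31 were analysed, since no column was mapped to AII+EGF library 2 after 24 h; 8 columns of the 24 h table are named as filtered, without an explanation. Conditions come from the labels. The 2 library series were set from the order of the libraries, in which the conditions repeat, and are not named in the labels. In the column names the numbers have a gap between the series at 24 h and none at 6 h.

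From the counts, low-count genes were removed (filterByExpr), TMM factors set and all 4 conditions of a time point fitted together by edgeR 4.0.16 (quasi-likelihood F test, R 4.3.3), with Benjamini-Hochberg adjustment over all genes tested. Errors of log2 fold changes are SE. The joint fit held both time points. Alternatives were DESeq2 1.42.0, its size factors within edgeR, the FDR alone, no low-count filter, an FDR of 0.01, the library series as a block, protein-coding genes only and each library left out; leaving out both libraries with over 50% U1 counts was added after the data were seen. Coordinates, exon lengths and upstream sequence come from GENCODE v44 lifted to GRCh37, not the authors' annotation. The procedure was tested on simulated data. All 8 members were named in every library; of other lists at most 4 called genes per comparison were named, by size of change, with both receptors, and 1 item is not reported here. For each member with at least 5 FPM or a call, the 5 most similar genes were named. The members and lists were chosen with earlier results of these data known. Counting error limits FOS and FOSB, with 3 to 84 and 6 to 50 counts per library. Genes sharing reads with others could not be separated without the strand setting.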

Additional observations from a re-analysis of the deposited data

Results flagged for a closer look

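In 56 groups of 4 libraries, the highest and the lowest FPM of each member were compared with the others by Dixon's ratio of the gap to the range. Chance flags about 1 in 20 groups, and 3 were found. JUND in EGF library 4 after 6 h was at 67.7 FPM, against 59.7 to 60.1 FPM in the other 3 EGF libraries. The same library was also the highest of its group for FOS, FOSB, FOSL1, FOSL2, JUN, JUNB and ATF3. JUN in AII library 3 after 24 h was at 224 FPM against 173 to 180 FPM, and JUNB in that library at 5.78 FPM against 3.55 to 3.92 FPM. That library held 57.2% of its counts on U1 genes and the highest JUND level after 24 h, 104 FPM. Without it the log2 fold change of JUN for AII against control after 24 h was -0.19, against -0.10 with it.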

How the results depend on the processing

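After 6 h the number of members called with EGF was 2, and 1 in DESeq2 (FOSL2), and it ranged from 0 to 2 when each library was left out. For AII+EGF it ranged from 2 to 3 against control and from 1 to 3 against AII. After 24 h the number called was 0, and ATF3 was called, giving 1, under these alternatives. With EGF these were DESeq2 (adjusted p = 0.00272), the library series as a block (0.0103), no filter on low counts (3.77e-04) and protein-coding genes only (0.0312), with a range of 0 to 1 when each library was left out. With AII+EGF they were the block (0.0488) and no filter (0.0193), and for AII+EGF against AII they were DESeq2 (0.00197), the block (0.00568), no filter (9.8e-05) and protein-coding genes only (0.0291). The cause was not tested. DESeq2 left FOSB without an adjusted p in 3 comparisons after 6 h and FOS and FOSB in 2 after 24 h, so that its counts there cover 7 and 6 members. Of the other counts of members, 132 from fits that left out 1 library and 85 from further alternatives were unchanged or within 1.5 times their value. Most of these were counts of 0 that stayed 0. A fall from 3 to 2, as where JUNB was lost, also lies within this limit, so that the tally does not measure how stable single calls were. None of the fold changes that turned direction was called. When each library was left out, the log2 fold change ranged from -0.11 to 0.77 for FOS (AII+EGF, 24 h), from -0.067 to 0.42 for FOSL1 (EGF, 24 h), from -0.067 to 0.13, -0.10 to 0.14 and -0.11 to 0.19 for FOSL2 (AII, AII+EGF and EGF, 24 h), from -0.14 to 0.082 and -0.22 to 0.00045 for JUN (AII and EGF, 6 h) and from -0.31 to 0.0099 for JUNB (AII, 24 h). With few FOS and FOSB counts per library, smaller differences in these genes were not detectable at this depth. No paired analysis was possible because no replicate number stands in the labels. Scaling to protein-coding counts for members too low for the fit was not run, since all 8 members passed the filter.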
